A study of Mus musculus with 12 samples.

Results

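Messenger RNA levels of 10 genes were followed through Otub1 deletion and T cell receptor stimulation in mouse splenic CD8 T cells, which the study's design names as naive: Aqp9, Pak6, Gpr97, Samd3, Pdlim4, Ctla2a, Acvrl1, Dapl1, Igfbp4 and Syt11. They are 10 of 23420 genes listed in the count tables and of 12759 genes with enough reads to be tested, and all 10 were among the tested genes. They were chosen by their measured levels in fresh knockout against fresh wild-type cells, as genes with large shifts there, so that difference is given here as a description and was not tested. The study had 4 groups of 3 libraries. The stimulated groups, OTUB1-CD4Cre-OT-I knockout (OTUB1-DKO in its genotype tag) and wild-type OT-I, were kept for 24 h on plate-bound anti-CD3, with anti-CD28 added (1 µg/ml of either antibody). The fresh groups, of the same 2 genotypes, were untreated. All mice were C57BL/6 and 6 to 8 weeks old, and all, wild type included, carried OT-I, a transgenic T cell receptor for an ovalbumin peptide. CD4-Cre acts in developing T cells from the stage at which Cd4 is first expressed, so the deletion was present before the cells matured, and it is not limited to CD8 T cells. The fresh cells are read here as uncultured, which leaves the effects of culture and of stimulation joined.

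OTUB1 is a deubiquitinase that cleaves ubiquitin chains and also blocks certain ubiquitin-conjugating enzymes. Stimulation through the T cell receptor and CD28 takes a CD8 T cell out of rest within a day, and most transcripts change. The 10 genes belong to different families: a channel for water and glycerol (Aqp9), an adhesion G protein-coupled receptor (Gpr97), a receptor kinase for bone morphogenetic proteins (Acvrl1), an effector kinase of the GTPase Cdc42 (Pak6), a protein that binds actin-associated partners (Pdlim4), a sterile alpha motif protein (Samd3), a cysteine protease inhibitor (Ctla2a), a relative of death-associated protein (Dapl1), a secreted binding protein of insulin-like growth factors (Igfbp4) and a synaptotagmin (Syt11). Dapl1 and Igfbp4 are also known as transcripts of resting naive T cells.

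The libraries held 15064488 to 25920035 gene counts each, and levels are CPM, the counts of a gene scaled to a library of 1000000. Otub1 was at 13.8 to 16.2 CPM in stimulated knockout against 85.7 to 100.1 CPM in stimulated wild type, and at 25.4 to 28.8 CPM in fresh knockout against 45.1 to 72.6 CPM in fresh wild type, so it followed the labels in every library. The libraries stimulated knockout 3, fresh knockout 2 and fresh wild type 3 had Y-linked reads, which the other 9 lacked beyond 10 counts, so sex differed within 3 of the 4 groups. The 10 CD8 T cell markers summed to 6154 to 6422 CPM in fresh knockout and 6034 to 6247 CPM in fresh wild type, although a cell type tag of the labels names splenic dendritic cells. The 14 dendritic cell markers summed to 1177 to 1750 CPM in fresh knockout, 1463 to 1792 CPM in fresh wild type and 104 to 125 CPM over both stimulated groups. In RNA from whole populations, fewer cells of a type and less RNA per cell cannot be told apart.

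The genes lie apart in the genome, on 8 chromosomes (GRCm38, GENCODE M21). Aqp9 lies on chromosome 9 (71110659 to 71168682), Pak6 and Dapl1 on chromosome 2 (118663303 to 118698020 and 59484653 to 59505020), Pdlim4 and Igfbp4 on chromosome 11 (54054928 to 54069014 and 99041244 to 99054392), and Samd3 on chromosome 10 (26229707 to 26272172). Ctla2a lies on chromosome 13 (60934155 to 60936625), Syt11 on chromosome 3 (88744700 to 88775164), Acvrl1 on chromosome 15 (101128522 to 101145336) and Gpr97, now named Adgrg3, on chromosome 8 (95017692 to 95045250). Reads of several genes carry an uncertainty of assignment. Ctla2a shared 25.8% of its exonic 50-base stretches with other genes, 11.4% of them with its paralog Ctla2b, and overlaps Gm49391 and Gm49393 on its own strand. Aqp9 and Acvrl1 overlap antisense genes, Gm32511 and Gm16031, whose reads cannot be told apart from theirs where counting ignores strand. Syt11 shared 5.92% of its exonic 50-base stretches with other genes and Igfbp4 1.72%, and the other 7 shared less than 1%.

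Promoter sequence was read for the genes with an entry in the RefSeq table of GRCm38.p6, which held 9 of the 10, all but Acvrl1. Windows of 250 bases before to 50 bases after the start were searched on both strands for letters of factors known in T cell differentiation. The T-box letters TCACACC were found in 1 of the 9 genes, Samd3, and in 4.6% of the 27025 genes with a promoter in the table. The forkhead letters GTAAACA were found in 1, Dapl1, and in 4.05% of all genes. AP-1 letters, TGACTCA or its reverse complement TGAGTCA, were found in 3 (Aqp9, Ctla2a and Pak6) and in 5.95% of all genes. KLF letters, CCACACCC, which overlap the T-box letters in part, were found in Igfbp4 and Pak6 and in 4.09% of all genes. ETS letters (CCGGAAGT) and E-box letters (CACGTG) were in none of these 9 windows and in 4.31% and 8.09% of all genes. The 250 bases before the start are shown, 5′ to 3′ on the strand of the gene, for Samd3 and Dapl1, where capitals mark the T-box and forkhead letters, and for Ctla2a with its paralog Ctla2b, where capitals mark the AP-1 letters and the near identity of the pair can be seen.
Samd3 (chr10:26229457-26229706, plus strand): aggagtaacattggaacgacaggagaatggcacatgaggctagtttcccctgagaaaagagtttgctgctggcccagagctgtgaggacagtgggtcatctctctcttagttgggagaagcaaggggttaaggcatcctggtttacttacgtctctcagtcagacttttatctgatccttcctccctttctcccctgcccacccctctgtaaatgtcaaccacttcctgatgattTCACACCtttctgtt
Dapl1 (chr2:59484403-59484652, plus strand): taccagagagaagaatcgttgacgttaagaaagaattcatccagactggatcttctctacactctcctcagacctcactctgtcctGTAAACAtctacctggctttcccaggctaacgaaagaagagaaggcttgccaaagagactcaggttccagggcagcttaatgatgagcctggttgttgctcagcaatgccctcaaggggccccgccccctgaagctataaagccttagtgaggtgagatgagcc
Ctla2a (chr13:60936626-60936875, minus strand): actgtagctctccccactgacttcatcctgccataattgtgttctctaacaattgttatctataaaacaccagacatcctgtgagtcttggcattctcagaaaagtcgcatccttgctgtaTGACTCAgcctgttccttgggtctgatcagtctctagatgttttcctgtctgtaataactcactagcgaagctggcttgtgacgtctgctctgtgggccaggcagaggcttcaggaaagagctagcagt
Ctla2b (chr13:60897448-60897697, minus strand): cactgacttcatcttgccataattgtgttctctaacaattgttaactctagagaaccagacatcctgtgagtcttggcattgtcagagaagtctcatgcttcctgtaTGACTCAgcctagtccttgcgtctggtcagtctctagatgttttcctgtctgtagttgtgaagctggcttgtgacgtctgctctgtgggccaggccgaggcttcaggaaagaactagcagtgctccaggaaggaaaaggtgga
The match ended 8 bases before the start of Samd3 and 157 bases before that of Dapl1. It ended 122 bases before the start of Ctla2a and 136 bases before that of Ctla2b. Of 228 aligned bases of the Ctla2a and Ctla2b windows, 209 were identical (91.7%). These matches describe letters in a window, and binding was not measured.

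In fresh cells 7 of the genes were higher in the knockout and 3 were lower, and these differences are what chose them. Groups of 3 libraries did not overlap for any of the 10. Over all genes tested in this comparison 20% did not overlap (10.6% higher and 9.42% lower), and 1.2% passed an edgeR adjusted p under 0.05 (0.98% higher and 0.219% lower). Nothing is read from either count, since the choice fixed it. Not all 10 were among the strongest changes. By fold, Aqp9, Pak6, Samd3, Pdlim4, Gpr97 and Ctla2a held ranks 2, 3, 6, 8, 10 and 16 among the 125 genes past that threshold on the higher side. Dapl1, Igfbp4 and Syt11 held ranks 4, 6 and 13 among the 28 on the lower side. Acvrl1 was not past the threshold and held rank 248 of all genes by p.

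The steepest fresh differences belonged to Aqp9, which in CD8 T cells is known for importing glycerol in cells that persist as memory cells, and to Pak6, a group II p21-activated kinase bound by Cdc42. Aqp9 was at 10.6, 18.7 and 12.4 CPM in fresh knockout, against 2.61, 2.33 and 3.53 CPM in fresh wild type (log2 fold change 2.32, SE 0.22). Pak6 was at 4.57, 5.02 and 4.27 CPM in fresh knockout, against 1.40, 0.727 and 0.799 CPM in fresh wild type (log2 fold change 2.26, SE 0.20). The lowest knockout library was 3.00-fold above the highest wild-type library for Aqp9 and 3.05-fold for Pak6. Pak6 rested on few reads in the wild type, 50 counts over the 3 libraries.

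Gpr97, Samd3, Pdlim4 and Ctla2a were 2.28-fold to 3.15-fold higher in fresh knockout. Gpr97, known for its expression in granulocytes, was at 22.4, 24.3 and 24.0 CPM in fresh knockout, against 8.20, 10.4 and 8.06 CPM in fresh wild type. Samd3 was at 21.4, 26.1 and 18.6 CPM in fresh knockout, against 9.23, 5.23 and 6.66 CPM in fresh wild type. Knockout libraries were the high ones for both, and Samd3 varied more within each group. Pdlim4, whose PDZ and LIM domains bind alpha-actinin and other partners at the actin cytoskeleton, was at 16.4, 16.7 and 11.4 CPM in fresh knockout, against 4.13, 4.46 and 7.26 CPM in fresh wild type. Ctla2a, named for its cloning from cytotoxic T cells and similar to the inhibitory propeptide of cathepsin L, was at 25.4, 35.0 and 24.6 CPM in fresh knockout, against 12.7, 11.8 and 12.9 CPM in fresh wild type. The log2 fold changes were 1.40 (SE 0.12) for Gpr97, 1.66 (SE 0.26) for Samd3, 1.50 (SE 0.24) for Pdlim4 and 1.19 (SE 0.14) for Ctla2a.

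Acvrl1 and the 3 lower genes had smaller fresh differences. Acvrl1, also called ALK1 and best known as the endothelial receptor for BMP9 and BMP10, was at 40.5, 36.6 and 38.2 CPM in fresh knockout, against 22.6, 26.4 and 25.5 CPM in fresh wild type (log2 fold change 0.63, SE 0.16). Dapl1 was at 65.2, 64.5 and 68.3 CPM in fresh knockout, against 117, 103 and 137 CPM in fresh wild type (log2 fold change −0.85, SE 0.13). The knockout libraries were the low ones for Dapl1 and lay close together. Igfbp4 was at 103, 158 and 127 CPM in fresh knockout, against 159, 218 and 221 CPM in fresh wild type (log2 fold change −0.62, SE 0.13), and its groups were 1.01-fold apart at their nearest libraries. Syt11, a synaptotagmin that takes part in vesicle traffic and in macrophages restrains secretion and phagocytosis, was at 30.5, 28.2 and 30.8 CPM in fresh knockout, against 41.7, 40.2 and 41.7 CPM in fresh wild type (log2 fold change −0.47, SE 0.08). Its fresh difference had the smallest SE of the 10.

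Single libraries recurred at the ends of these ranges. Fresh knockout 2, one of the libraries with Y-linked reads, was the highest knockout library for 7 of the 10 genes: Aqp9, Pak6, Gpr97, Samd3, Pdlim4, Ctla2a and Igfbp4. In fresh wild type, replicate 2 was the lowest library for 6 of the 10 and replicate 3, which also had Y-linked reads, the highest for 6. In stimulated knockout, replicate 3, again with Y-linked reads, was the highest for 5 of the 10. Ctla2a and Igfbp4 were highest in the library with Y-linked reads in each of these groups. All 10 fresh fold changes kept their direction in each of 18 alternatives, among them a fit that left out every library with Y-linked reads. Nothing is read from this. These genes were chosen on this comparison and their fresh groups did not overlap, so leaving out libraries could hardly reverse a direction.

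**Figure D1:**
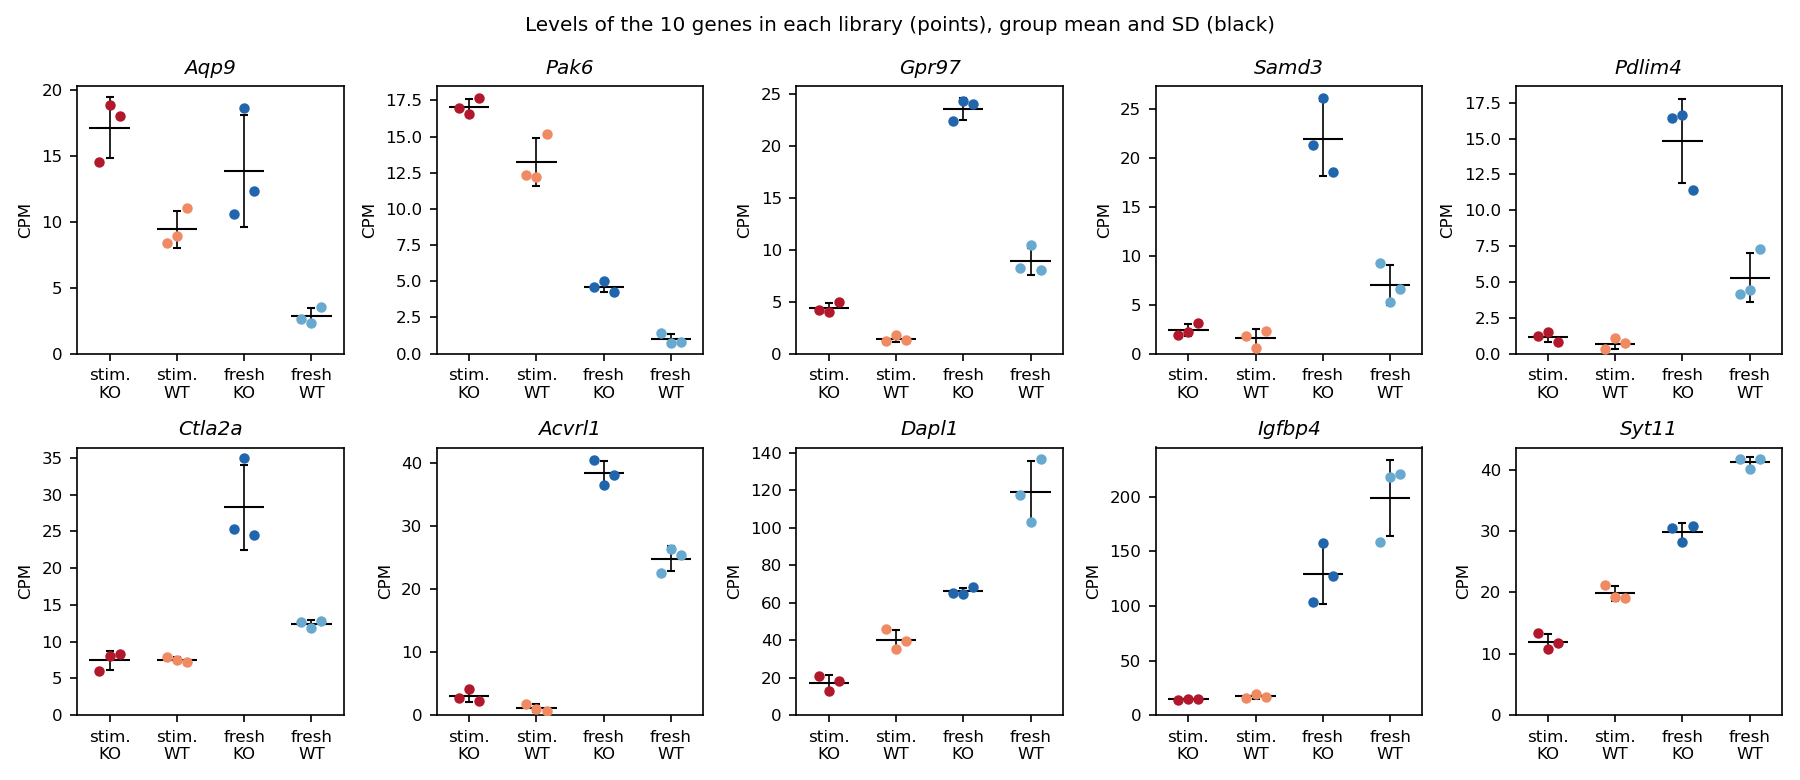
Level of each of the 10 genes in CPM (vertical axes, starting at 0) in the 4 groups (horizontal axes). Points are libraries, horizontal black lines are group means and black bars are SD, n = 3. In fresh cells all knockout points lie above all wild-type points for the first 7 genes and below them for Dapl1, Igfbp4 and Syt11, the difference by which the genes were chosen.

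Markers of other cell types that are known to express some of these genes were set beside them. Aqp9 and Gpr97 are known from neutrophils. The 15 listed neutrophil markers summed to 17.2, 14.1 and 24.0 CPM in fresh knockout, against 15.6, 16.3 and 15.1 CPM in fresh wild type, with Elane at 0 in all libraries. The most abundant of them, Cxcr2 and Csf3r, were at 5.77 and 4.30 CPM in fresh knockout and at 5.30 and 3.27 CPM in fresh wild type. The genotypes overlapped in this sum. For Acvrl1, the 14 endothelial and stromal markers summed to 16.0, 12.0 and 16.0 CPM in fresh knockout, against 17.3, 18.1 and 13.9 CPM in fresh wild type. These sums also overlapped. Fresh knockout 2 was the lowest and fresh wild type 2 the highest library of its group for both Acvrl1 and this sum. Macrophage and monocyte markers, which matter for Syt11, summed to 65.7, 54.8 and 110.4 CPM in fresh knockout, against 71.4, 87.5 and 120.2 CPM in fresh wild type. Fresh knockout libraries had the same order in this sum as in Syt11. In fresh wild type the orders differed, with replicate 1 lowest in this sum and replicate 2 lowest for Syt11. The 11 NK cell markers, which matter for Samd3 and Ctla2a, summed to 50.4 to 94.2 CPM in fresh knockout and 61.0 to 70.8 CPM in fresh wild type, with Klra8 and Klra4 at 0. Fresh knockout 2, the highest knockout library for Aqp9, Gpr97, Samd3 and Ctla2a, was the lowest in the neutrophil and NK sums. The part of such transcripts in the fresh differences was not tested. The 9 marker lists also covered B cells, CD4 T cells, macrophages, and erythroid cells and platelets. None of these lists had a gene called by edgeR in fresh cells, where 1.2% of all genes tested were called. Of their 74 tested genes, 10 had an unadjusted p under 0.05 there, and 1, a CD8 T cell marker, passed with DESeq2 and 0 with limma-voom. In stimulated knockout 8 of the 74 were called, where 9.3% of all genes tested were called. Of the CD8 T cell markers Themis rose and Cd8a, Cd3d, Cd3e and Cd3g fell, by 0.31, 0.40, 0.31 and 0.49 on the log2 scale, and the 10 summed to 2413 to 2532 CPM in stimulated knockout and 2715 to 2837 CPM in stimulated wild type. The others were the dendritic cell markers Zbtb46 and Batf3 and the endothelial marker Egfl7, which rose. These 8 genes were named after their values were seen, and their part in the stimulated differences of the 10 was not tested.

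Stimulated cells gave a comparison whose libraries the choice on fresh cells did not use. Its p-values still rest on a spread estimated over all 12 libraries, fresh ones included. Of the 10 genes, 3 were higher in stimulated knockout and 2 lower at an edgeR adjusted p under 0.05, where 9.3% of all genes tested were called (5.08% higher and 4.22% lower). The higher ones were Gpr97, Acvrl1 and Aqp9, and the lower ones were Dapl1 and Syt11. Earlier results of these data had already named Gpr97, Acvrl1 and Dapl1 in this comparison when the 10 were chosen, so these 3 calls are no independent support. Groups did not overlap for 7 of the 10 (4 higher and 3 lower), against 27.4% of all genes (14.3% higher and 13.1% lower). The median log2 fold change was 0.47 over the 10 and −0.0048 over all genes. This median mixes 7 genes chosen as higher in fresh knockout with 3 chosen as lower, and nothing is read from its sign. The counts and the median all include Gpr97, Acvrl1 and Dapl1. Outside these, the genes called were Aqp9 and Syt11. The 5 calls held in all 18 alternatives, with an adjusted p of up to 0.0475. These included a fit of only the 2 groups compared, and leaving out single libraries or all those with Y-linked reads.

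Gpr97, the adhesion receptor, was at 4.22, 4.03 and 4.95 CPM in stimulated knockout, against 1.25, 1.78 and 1.29 CPM in stimulated wild type. The lowest knockout library was 2.26-fold above the highest wild-type library (log2 fold change 1.61, SE 0.17, edgeR adjusted p = 9.92e-05), on 301 counts over the knockout and 93 over the wild-type libraries. Acvrl1, the BMP receptor, was at 2.75, 4.08 and 2.15 CPM in stimulated knockout, against 1.80, 0.963 and 0.624 CPM in stimulated wild type. The groups did not overlap but were 1.19-fold apart at their nearest libraries (log2 fold change 1.41, SE 0.29, edgeR adjusted p = 0.00702). The endothelial and stromal markers summed to 7.87 to 8.32 CPM in stimulated knockout and 6.15 to 6.70 CPM in stimulated wild type, which did not overlap either. Most of that sum was Egfl7, at 5.73 CPM in stimulated knockout and 3.93 CPM in stimulated wild type (log2 fold change 0.55, edgeR adjusted p = 0.0323). Plvap was at 0.555 CPM in stimulated knockout and 0.810 CPM in stimulated wild type. In fresh knockout and fresh wild type Egfl7 was at 0.85 and 0.84 CPM, and Plvap at 2.84 and 3.99 CPM. Egfl7 was thus higher in stimulated than in fresh cells, while Plvap and the whole sum were lower. The part of these transcripts in the Acvrl1 result was not tested. Aqp9, the glycerol channel, was at 14.6, 18.9 and 18.0 CPM in stimulated knockout, against 8.37, 8.91 and 11.0 CPM in stimulated wild type. Its groups did not overlap (log2 fold change 0.86, SE 0.18, edgeR adjusted p = 0.00951). Neutrophil markers summed to 6.85 to 8.37 CPM in stimulated knockout and 7.03 to 7.73 CPM in stimulated wild type. Most of this sum was Cxcr2, at 5.01 and 4.97 CPM, against 5.77 and 5.30 CPM in fresh knockout and wild type. Csf3r was at 0.808 and 0.752 CPM, against 4.30 and 3.27 CPM in fresh cells. The sum thus rests mostly on 1 marker, and its part in the Aqp9 result was not tested.

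Of the genes lower in fresh knockout, Dapl1 and Syt11 fell in stimulated knockout too. Dapl1 was at 20.9, 12.9 and 17.9 CPM in stimulated knockout, against 45.7, 35.3 and 39.4 CPM in stimulated wild type. The highest knockout library was well below the lowest wild-type library (log2 fold change −1.21, SE 0.14, edgeR adjusted p = 0.000163). The vesicle protein Syt11 was at 13.4, 10.8 and 11.7 CPM in stimulated knockout, against 21.2, 19.2 and 19.1 CPM in stimulated wild type. Again no library of one group reached the other (log2 fold change −0.73, SE 0.08, edgeR adjusted p = 0.000139). Igfbp4 was at 14.1, 14.5 and 14.7 CPM in stimulated knockout, against 15.4, 19.6 and 16.7 CPM in stimulated wild type, and was not called (log2 fold change −0.26, SE 0.17, edgeR adjusted p = 0.400). Its groups were next to each other without overlap.

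The remaining 4 genes did not pass in stimulated cells. Pak6, the Cdc42-binding kinase, was at 17.0, 16.6 and 17.6 CPM in stimulated knockout, against 12.4, 12.2 and 15.2 CPM in stimulated wild type. These groups did not overlap, but the log2 fold change was 0.36 (SE 0.12, edgeR adjusted p = 0.0772). Samd3 was at 1.86, 2.20 and 3.10 CPM in stimulated knockout, against 1.80, 0.578 and 2.33 CPM in stimulated wild type (log2 fold change 0.58, SE 0.36, edgeR adjusted p = 0.367). Its groups overlapped at low levels, and wild-type replicate 2, with 12 counts, was the lowest library. Pdlim4 was at 1.20, 1.52 and 0.775 CPM in stimulated knockout, against 0.301, 1.06 and 0.707 CPM in stimulated wild type (log2 fold change 0.72, SE 0.42, edgeR adjusted p = 0.318). Ctla2a, the protease inhibitor, was at 6.00, 8.11 and 8.31 CPM in stimulated knockout, against 7.87, 7.51 and 7.27 CPM in stimulated wild type (log2 fold change −0.02, SE 0.15, edgeR adjusted p = 0.950). The wild-type libraries of Ctla2a lay inside the range of the knockout libraries.

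Pak6 passed with limma-voom (log2 fold change 0.36, adjusted p = 0.0247) and without fresh wild type 1 (adjusted p = 0.036), where the adjusted p ranged from 0.0247 to 0.237 over its 18 alternatives. The log2 fold change of Ctla2a was 0.12 without stimulated knockout 1 and 0.01 without stimulated wild type 1, so it had no settled direction.

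Set side by side, 9 of the 10 genes had the same sign in both states, with Ctla2a the exception. The size was smaller in stimulated cells for 6 of the 10. The log2 difference between the states, stimulated minus fresh, was −1.90 (SE 0.24) for Pak6, −1.46 (SE 0.29) for Aqp9, −1.21 (SE 0.21) for Ctla2a and −1.08 (SE 0.45) for Samd3. It was 0.21 (SE 0.21) for Gpr97 and 0.78 (SE 0.33) for Acvrl1, the genes with the highest stimulated fold changes. Single libraries weighed on several of these values. Without 1 library the difference was 0.072 (without fresh wild type 2) to 0.39 (without stimulated wild type 2) for Gpr97, 0.46 (without stimulated wild type 3) to 1.27 (without stimulated wild type 1) for Acvrl1, and −1.46 (without stimulated wild type 2) to −0.65 (without stimulated wild type 3) for Samd3. These differences contain the fresh comparison that chose the genes and were not tested.

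**Figure D2:**
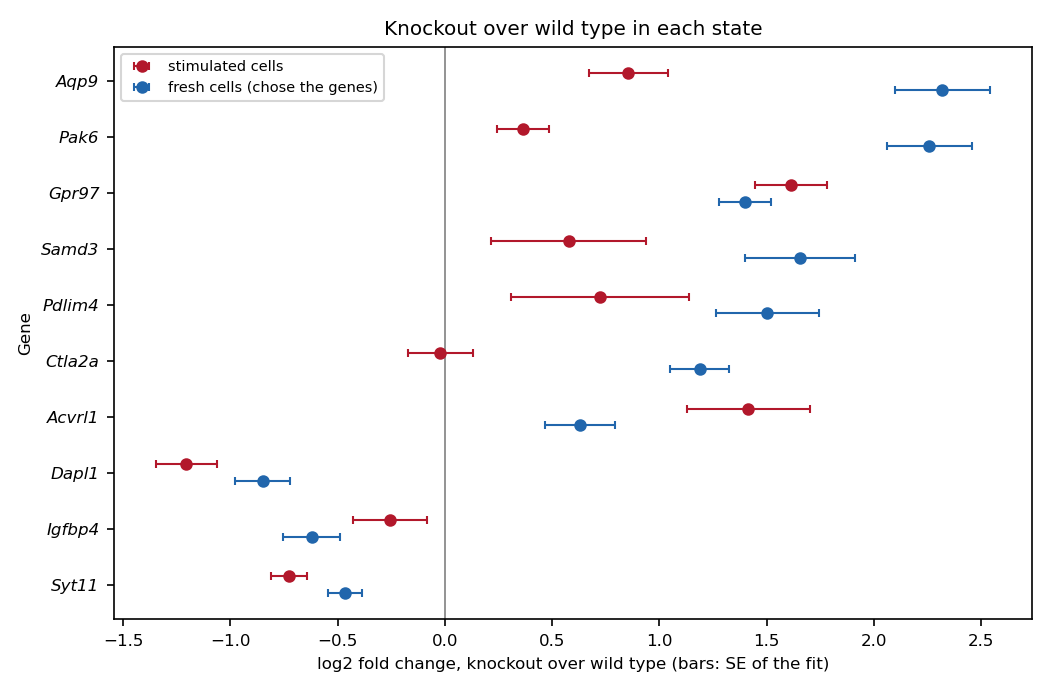
log2 fold change of knockout over wild type (horizontal axis) for each of the 10 genes (rows), in stimulated cells (red) and in fresh cells (blue), with bars for the SE of the fit. The red points of Gpr97 at 1.61 and Acvrl1 at 1.41 lie right of their blue points at 1.40 and 0.63, while Pak6 and Aqp9 have red points at 0.36 and 0.86 and blue points above 2.2.

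All 10 genes differed between stimulated and fresh cells, as did most genes. Over the mean of the genotypes, Aqp9 and Pak6 rose in stimulated cells and the other 8 fell, in a comparison in which 88.3% of all genes tested changed at an edgeR adjusted p under 0.05 (43.6% higher and 44.7% lower). The median log2 fold change was −2.14 over the 10 and −0.022 over all genes. This mean weights both genotypes equally in each state. It uses the fresh libraries by which the genes were chosen. The p-values, the median over the 10 and the counts in each direction are therefore not fully independent of that choice. Nothing is read from that median or from the number that fell, and a count of all 10 lies near the share of all genes. Libraries of the states did not overlap for 9 of the 10 (1 higher and 8 lower), against 74.3% of all genes (37.4% higher and 36.8% lower).

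Pak6 had 12.2, 15.9 and 17.6 CPM as the lowest, median and highest of 6 stimulated libraries, against 0.727, 2.83 and 5.02 CPM in 6 fresh libraries (log2 fold change 2.83, SE 0.11, edgeR adjusted p = 6.67e-13). All stimulated libraries were thus above all fresh ones. Aqp9 had 8.37, 12.8 and 18.9 CPM in stimulated libraries, against 2.33, 7.06 and 18.7 CPM in fresh libraries (log2 fold change 1.03, SE 0.15, edgeR adjusted p = 6.19e-06). It was the 1 gene whose states overlapped, since all 3 fresh knockout libraries lay inside the range of the stimulated libraries. Within genotypes its log2 fold change on stimulation was 0.30 (SE 0.18) in the knockout and 1.76 (SE 0.23) in the wild type, and that of Pak6 was 1.88 (SE 0.13) in the knockout and 3.78 (SE 0.18) in the wild type. The value of Aqp9 in the knockout was 0.14 without fresh knockout 1 and 0.57 without fresh knockout 2. These within-genotype values use the fresh libraries and were not tested.

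Of the 10, Acvrl1 fell the most, at 0.624, 1.98 and 4.08 CPM in stimulated libraries, against 22.6, 31.5 and 40.5 CPM in fresh libraries (log2 fold change −4.09, SE 0.15, edgeR adjusted p = 3.18e-13). Igfbp4 had 14.1, 15.1 and 19.6 CPM in stimulated libraries, against 103, 158 and 221 CPM in fresh libraries (log2 fold change −3.35, SE 0.11, edgeR adjusted p = 6.45e-14). Pdlim4 had 0.301, 0.917 and 1.52 CPM in stimulated libraries, against 4.13, 9.33 and 16.7 CPM in fresh libraries (log2 fold change −3.29, SE 0.22, edgeR adjusted p = 6.13e-10). For each of these the highest stimulated library was below the lowest fresh one, by 5.54-fold, 5.29-fold and 2.72-fold in that order.

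Samd3 fell with a log2 fold change of −2.67 (SE 0.22) and Gpr97 with −2.53 (SE 0.10), to medians of 2.03 and 2.91 CPM in stimulated libraries, against 13.9 and 16.4 CPM in fresh libraries (edgeR adjusted p = 6.55e-09 and 7.49e-13). Dapl1, Ctla2a and Syt11 fell less, with log2 fold changes of −1.75 (SE 0.10), −1.33 (SE 0.10) and −1.18 (SE 0.06) and edgeR adjusted p of 5.2e-11, 3.92e-09 and 8.55e-12. Their median levels were 28.1, 7.69 and 16.2 CPM in stimulated libraries, against 85.7, 18.7 and 35.5 CPM in fresh libraries. The fall of Ctla2a differed most between genotypes among these, with a log2 fold change of −1.93 (SE 0.14) in the knockout and −0.72 (SE 0.15) in the wild type, as a description. Ctla2a averaged 7.47 ± 1.28 CPM in stimulated knockout and 7.55 ± 0.297 CPM in stimulated wild type, against 28.3 ± 5.80 CPM in fresh knockout and 12.5 ± 0.556 CPM in fresh wild type (SD, n = 3 each).

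Transcripts of other cell types also differed between the states. The B cell markers summed to 22.9 to 34.3 CPM over the stimulated libraries, against 139 to 210.2 CPM over the fresh ones. Macrophage and monocyte markers summed to 3.40 to 6.40 CPM in stimulated and 54.8 to 120.2 CPM in fresh libraries, and NK cell markers to 3.53 to 5.57 CPM in stimulated and 50.4 to 94.2 CPM in fresh libraries. The CD4 T cell markers were not lower, at 63.0 to 181.2 CPM in stimulated and 57.6 to 74.3 CPM in fresh libraries. Most of their stimulated sum was Ctla4. The lower sums moved with the 8 genes that fell, and their part in these falls was not tested. CD8 T cell markers summed to 2413 to 2837 CPM over both stimulated groups and 6034 to 6422 CPM in fresh libraries. CPM are shares of a library, so whether a fall in CPM was also a fall per cell was not tested.

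**Figure D3:**
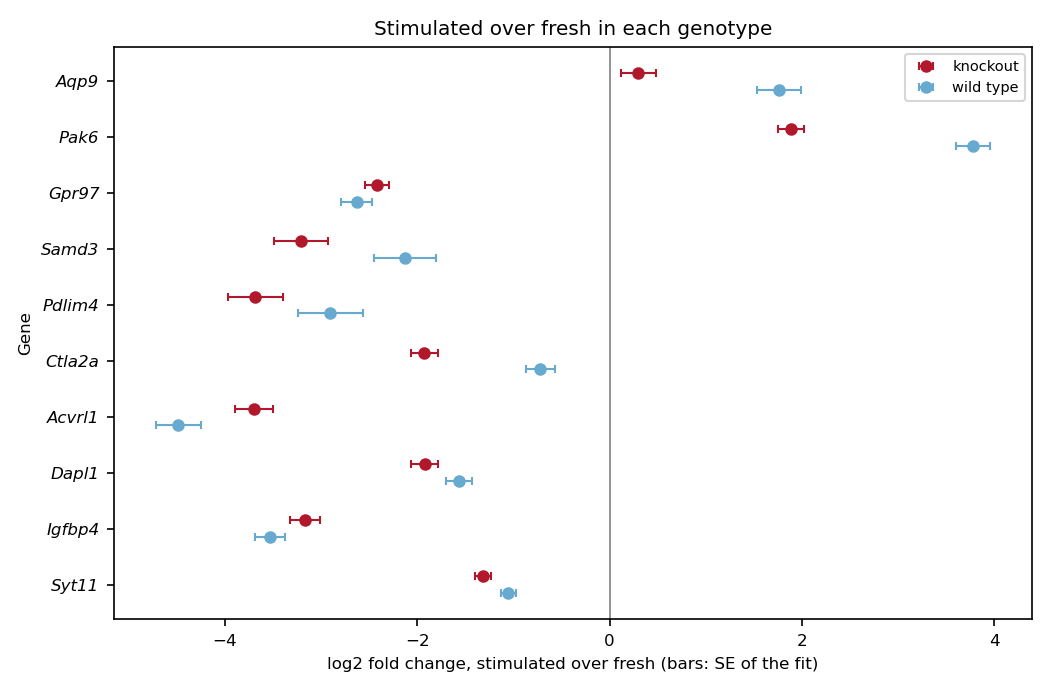
log2 fold change of stimulated over fresh cells (horizontal axis) for each of the 10 genes (rows) in the knockout (red) and the wild type (light blue), with bars for the SE of the fit. Aqp9 and Pak6 lie right of 0 in both genotypes and the other 8 lie left of 0, down to −3.70 in the knockout and −4.49 in the wild type for Acvrl1.

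Levels were compared between genes per kilobase of exon. In fresh knockout the order was Dapl1 at 115 ± 3.49 CPM per kb, Igfbp4 at 33.0 ± 6.98, Ctla2a at 20.6 ± 4.22, Pdlim4 at 12.5 ± 2.51, Acvrl1 at 10.1 ± 0.522 and Gpr97 at 9.66 ± 0.424 CPM per kb (SD, n = 3 each). Below them stood Samd3 at 6.19 ± 1.08, Syt11 at 5.78 ± 0.279, Aqp9 at 4.13 ± 1.26 and Pak6 at 1.03 ± 0.085 CPM per kb. Pdlim4, Acvrl1 and Gpr97 lay within their spread of each other, as did Samd3 and Syt11. In stimulated knockout Dapl1 was again the highest, at 30.1 ± 7.04 CPM per kb, and in stimulated wild type it was at 70.1 ± 9.12 CPM per kb. Samd3, Acvrl1 and Pdlim4 were the lowest there, at 0.671 ± 0.180, 0.788 ± 0.260 and 0.985 ± 0.315 CPM per kb in stimulated knockout, and their order was within the spread.

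Families of the 10 genes were followed through 10 lists of relatives with 145 genes, of which 86 were tested. In stimulated knockout 9 of the 86 rose and 6 fell, and in fresh knockout 3 rose, among them Tgfbr3 and Smad3, which were named after their values were seen. Over all genes tested 5.08% rose and 4.22% fell in stimulated knockout, and 0.98% rose in fresh knockout. The lists contain no member of the 10, so what follows describes how the nearest genes of each family behaved.

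Gpr56, the neighbour of Gpr97, was set beside it. Gpr97 starts 3474 bases after the end of Gpr56 on chromosome 8, and both encode adhesion receptors. Gpr56, now Adgrg1 and known in human cytotoxic lymphocytes, was at 8.79, 7.90 and 10.2 CPM in stimulated knockout, against 5.16, 4.09 and 5.86 CPM in stimulated wild type (log2 fold change 0.83, SE 0.16, edgeR adjusted p = 0.00592). In fresh cells Gpr56 was at 0.779 ± 0.176 CPM in the knockout and 1.11 ± 0.280 CPM in the wild type (SD, n = 3 each; log2 fold change −0.54, edgeR adjusted p = 0.430). Over the mean of the genotypes Gpr56 rose with stimulation (log2 fold change 2.85, SE 0.15, edgeR adjusted p = 3.28e-11) where Gpr97 fell, and it was higher in stimulated knockout like Gpr97. Of the other adhesion receptors Celsr2 rose in stimulated knockout by 0.31 on the log2 scale (edgeR adjusted p = 0.0496), and 2 of 16 tested were called in all.

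**Figure D4:**
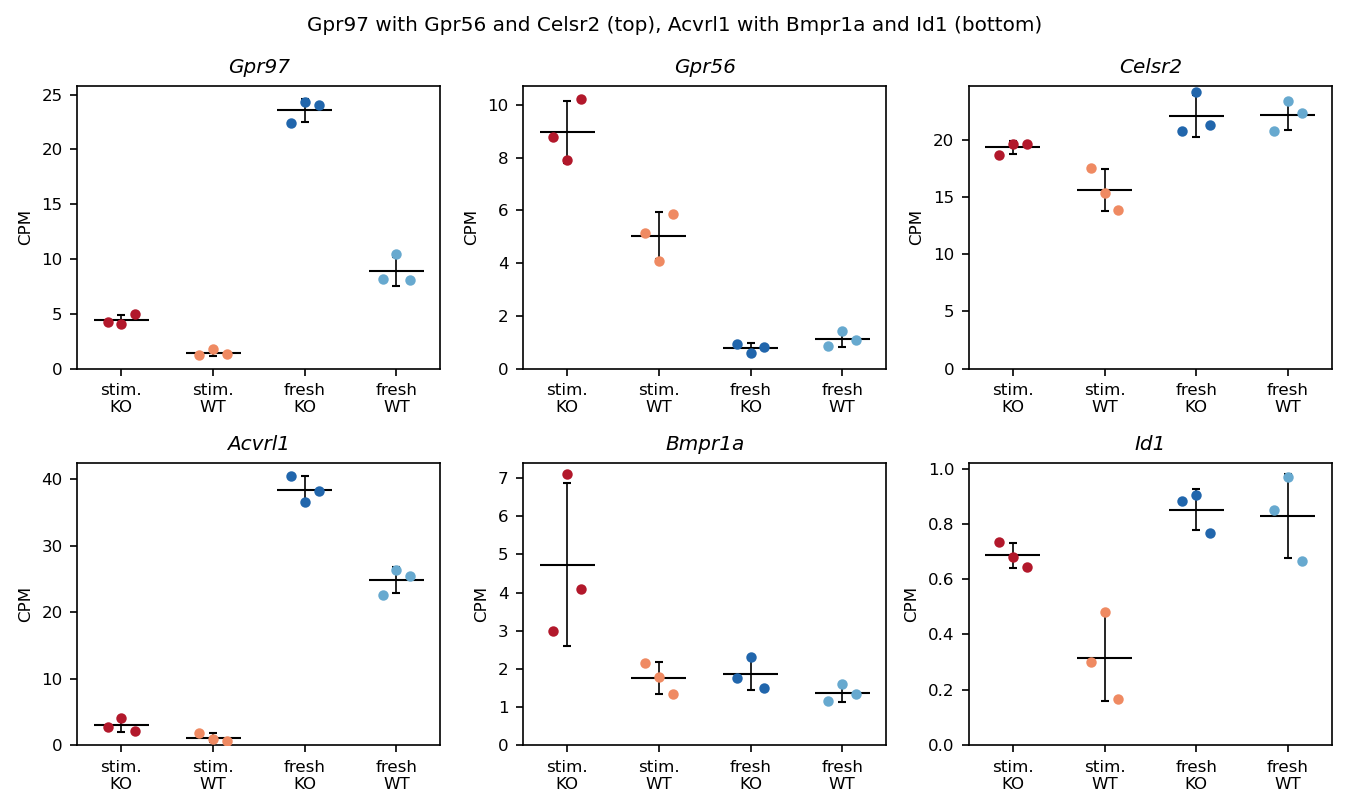
Levels in CPM (vertical axes, starting at 0) of Gpr97, Gpr56 and Celsr2 in the top row and of Acvrl1, Bmpr1a and Id1 in the bottom row, by group. Points are libraries, horizontal black lines are means and black bars are SD, n = 3. Gpr56 is high in the stimulated groups, at 8.98 and 5.04 CPM on average in knockout and wild type, where Gpr97 is low.

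Around Acvrl1, 1 of 21 tested genes of TGF-beta and BMP signalling rose in stimulated knockout and 1 fell. Bmpr1a, another type I receptor for BMPs, was at 2.98, 7.11 and 4.09 CPM in stimulated knockout, against 2.15, 1.78 and 1.33 CPM in stimulated wild type. Its knockout libraries were all higher but spread widely (log2 fold change 1.42, SE 0.29, edgeR adjusted p = 0.00734). Id3, a transcriptional inhibitor induced by BMP signals, was the one that fell (log2 fold change −0.60, SE 0.14, edgeR adjusted p = 0.0151), with 21.3 ± 5.14 CPM in stimulated knockout and 32.4 ± 0.847 CPM in stimulated wild type. Id1, a target gene of ALK1, was at 0.687 ± 0.0453 CPM in stimulated knockout and 0.316 ± 0.158 CPM in stimulated wild type and was not called (log2 fold change 1.14, edgeR adjusted p = 0.0629). Eng, the coreceptor endoglin, was not called either (log2 fold change 0.20, edgeR adjusted p = 0.342). In fresh knockout Tgfbr3, the coreceptor betaglycan, and Smad3, a transducer of TGF-beta signals, rose by 0.37 and 0.36 on the log2 scale (edgeR adjusted p = 0.0265 and 0.0426).

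Ctla2b, the paralog of Ctla2a, had few reads. It was at 4.83, 6.74 and 6.18 CPM in fresh knockout, against 3.22, 2.13 and 3.13 CPM in fresh wild type, and was not called (log2 fold change 1.08, SE 0.25, edgeR adjusted p = 0.0518). The fresh groups of Ctla2b did not overlap, and 69% of its exonic 50-base stretches are shared with other genes. In stimulated cells it was at 0.690 ± 0.291 CPM in the knockout and 0.945 ± 0.440 CPM in the wild type (log2 fold change −0.39, edgeR adjusted p = 0.582). The list of Ctla2b and cathepsins, a group of proteases that includes cysteine proteases such as cathepsin L, had 1 of 13 tested genes higher and 4 lower in stimulated knockout. Ctso, Ctss and Ctsw fell, with log2 fold changes of −0.77, −0.48 and −0.36, as did Ctse, an aspartic protease named after its value was seen, and Ctsz rose by 0.47 on the log2 scale (edgeR adjusted p = 0.00073, 0.00263, 0.00421 and, for Ctsz, 0.00225). Among all 10 lists this one had the most genes called lower.

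Relatives of the other genes moved little or in both directions. Of 4 tested aquaporins, edgeR, DESeq2 and limma-voom called 0 in stimulated knockout, and 1 had an unadjusted edgeR p under 0.05. The closest to Aqp9 in what it passes, the aquaglyceroporin Aqp3, was at −0.73 on the log2 scale (SE 0.30, edgeR adjusted p = 0.148), and all 4 fell on stimulation where Aqp9 rose. Of 3 tested p21-activated kinases 0 were called by any of these tools, 0 had an unadjusted edgeR p under 0.05, and Pak4 was at −0.09 on the log2 scale (edgeR adjusted p = 0.686). These 3 fell on stimulation, whereas Pak6 rose. Dap, the relative of Dapl1, was at 26.9 ± 2.68 CPM in stimulated knockout and 26.3 ± 1.04 CPM in stimulated wild type and was not called (log2 fold change 0.03, edgeR adjusted p = 0.825). Pdlim2, which in mice promotes the breakdown of STAT4 and NF-kappaB, fell by 0.31 on the log2 scale and Pdlim7 rose by 0.44 (edgeR adjusted p = 0.0124 and 0.0352). Samd1 rose by 0.27 on the log2 scale (edgeR adjusted p = 0.0349), the 1 of 8 tested relatives of Samd3 that was called. On the insulin-like growth factor axis Igf2r and Insr rose by 0.25 and 0.32 (edgeR adjusted p = 0.0162 and 0.0169), and the main receptor of the pathway, Igf1r, was at −0.05 on the log2 scale (edgeR adjusted p = 0.782). Among 10 tested relatives of Syt11, Sytl3, a synaptotagmin-like protein, rose with 81.2 ± 6.73 CPM in stimulated knockout and 50.9 ± 1.18 CPM in stimulated wild type (log2 fold change 0.67, SE 0.12, edgeR adjusted p = 0.00285), while Syt11 itself fell. Syt4, the nearest paralog of Syt11, had 1 read in all and was not tested.

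Genes whose levels went most like each of the 10 were found by Pearson correlation of log2 CPM over the 12 libraries, after the mean of each state was subtracted, among 10438 genes. These correlations are descriptions over libraries that share genotype groups and depth. The difference between genotypes was not subtracted, so they contain the fresh difference that chose the 10 genes. A gene that moved like them in fresh knockout scores high for that reason, and the names are not independent evidence. Ctla2a was most like Eomes and Tbx21 (r = 0.93 for each), the pair of T-box factors of effector and memory CD8 T cells. By Spearman correlation these held ranks 3 and 19 for Ctla2a, with rho of 0.94 and 0.87, behind Nf1 and Ppm1j. Aqp9 went with Prr13 and Bend4 (r = 0.96 for each), Gpr97 with Stambp and Nlgn2 (r = 0.97 and 0.96), and Acvrl1 with Nedd4 and Dock5 (r = 0.96 and 0.95). Pdlim4 went with Plscr3 and Zfp516 (r = 0.97 and 0.91), Samd3 with Mtr and St3gal6 (r = 0.95 and 0.93), and Pak6 with Gm3002 and Cln3 (r = 0.93 and 0.92). Of the lower genes, Dapl1 went with Pgap1 and Fxyd5 (r = 0.96 for each), Igfbp4 with Ndufaf4 and Tomm20 (r = 0.94 and 0.90), and Syt11 with Zfp317 and Clcn4-2 (r = 0.95 for each). With Spearman correlation 5 of the 10 genes shared 1 of their 2 nearest genes and 5, Ctla2a among them, shared 0, so the exact names depend on the measure.

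Tbx21 and Eomes rose in fresh knockout, which earlier results of these data had shown (edgeR adjusted p = 0.000301 and 0.0192), and like Ctla2a they were not called in stimulated cells. Tbx21 was at 25.6, 38.7 and 27.7 CPM in fresh knockout, against 12.5, 11.7 and 14.1 CPM in fresh wild type. Eomes was at 85.7, 118.5 and 89.5 CPM in fresh knockout, against 69.5, 52.9 and 67 CPM in fresh wild type. Fresh knockout 2 was the highest library for both, as it was for Ctla2a. In stimulated cells the log2 fold changes were 0.17 (SE 0.11, edgeR adjusted p = 0.375) for Tbx21 and −0.03 (SE 0.11, edgeR adjusted p = 0.893) for Eomes. Unlike Ctla2a, both were higher in stimulated than in fresh cells, with Tbx21 at 101 CPM in stimulated knockout and 89.7 CPM in stimulated wild type, and Eomes at 166 CPM in stimulated knockout and 170.2 CPM in stimulated wild type.

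**Figure D5:**
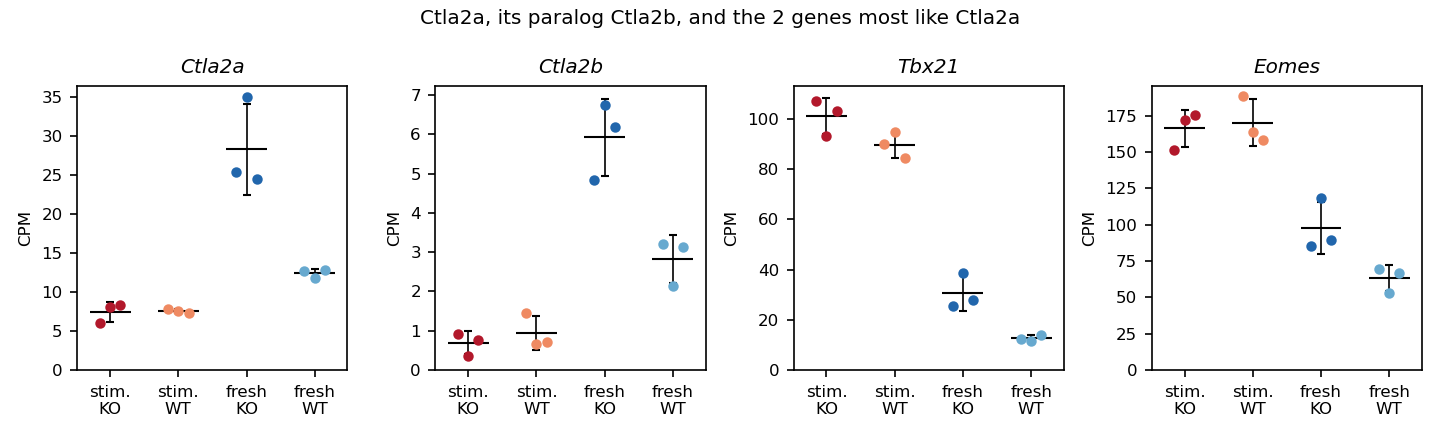
Levels in CPM (vertical axes, starting at 0) of Ctla2a, its paralog Ctla2b and the T-box factors Tbx21 and Eomes, by group. Points are libraries, horizontal black lines are means and black bars are SD, n = 3. In fresh cells every knockout point lies above every wild-type point for all 4 genes. In stimulated cells Ctla2a and Ctla2b are low and Tbx21 and Eomes high.

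Lists of memory-phenotype and of naive CD8 T cell genes gave the setting of these differences. The lists were written with results of these data known and are not independent evidence of their direction. Of 22 memory-phenotype genes 10 rose in fresh knockout, and in stimulated knockout 8 rose and 3 fell, with medians of 0.55 and 0.23 on the log2 scale. Over all genes tested 0.98% rose and 0.219% fell in fresh knockout, and 5.08% rose and 4.22% fell in stimulated knockout. The leading genes in stimulated knockout were Runx2, a transcription factor (log2 fold change 0.90, edgeR adjusted p = 0.000365), Bhlhe40, a transcription factor of tissue-resident T cells (0.70, edgeR adjusted p = 0.00457), Ccr2, a chemokine receptor (1.33, edgeR adjusted p = 0.00526), and Prdm1, which encodes the effector regulator Blimp-1 (1.05, edgeR adjusted p = 0.00845). Of 17 tested naive genes 2 rose and 8 fell in stimulated knockout. Klf2, a transcription factor of naive cells, Itgae, an integrin chain, and Cd27, a costimulatory receptor, fell with log2 fold changes of −0.77, −0.98 and −0.44, and Actn1, alpha-actinin 1, rose by 0.53 (edgeR adjusted p from 0.000207 to 0.0027). In fresh knockout edgeR called 0 of these 17. Of them, 3 had an unadjusted edgeR p under 0.05 and 1 passed with each of the other tools, while Dapl1 and Igfbp4 were among the genes chosen for being lower there.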

How the data were processed

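RNA sequencing was analysed in 12 libraries, 3 each of stimulated knockout, stimulated wild type, fresh knockout and fresh wild type, grouped by the source labels, which read untreated for fresh. The authors deposited 1 table of raw counts per gene for each library. The submitters' processing notes name the mm10 build and the tools HTSeq, TopHat, TopHat2 and DESeq2, with versions, annotation and strand setting not given in the sources used here. The 5 summary lines of each file (5.22% to 6.43% of its total) were left out. Replicates were numbered in accession order, the labels do not say whether they came from separate animals or give a batch, and p-values measure the spread between these libraries. Every pair of replicates differed beyond counting noise, at 4.26 to 18.6 times the chi-square that such noise gives.

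Genes were filtered with filterByExpr, which left 12759, and scaled by TMM (factors 0.988 to 1.01). One edgeR 4.0.16 quasi-likelihood fit in R 4.3.3 had a coefficient per group and 8 residual degrees of freedom. P-values were two-sided and adjusted over all genes by the Benjamini-Hochberg method, with 0.05 as the threshold. The method was also run on simulated counts with a single fixed spread for all genes. That spread was not taken from these libraries, so the run does not show the error rate in these data. Fold changes are log2 with the SE of the fit, and CPM are scaled to 1000000 counts. DESeq2 1.42.0, limma-voom (limma 3.58.1, prior count 2 for log2 CPM), other size factors, no filter, smaller fits and fits without 1 library were alternatives, 18 for each genotype comparison and 17 for stimulation. The members and gene lists were chosen with earlier results of these data known. Besides the 10 genes and Otub1, the text names up to 4 genes per list by smallest p in stimulated knockout, the closest relative of each gene, the 2 most abundant markers of lists it describes and the 2 genes most like each of the 10 (mean log2 CPM of at least 1). Gene positions come from GENCODE M21 and promoters from RefSeq. Results for 1 relative of these genes are not reported here.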

Additional observations from a re-analysis of the deposited data

Results flagged for a closer look

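For 13 of 34 other genes named here, the genotype effect on the log2 scale differed between stimulated and fresh cells by edgeR's interaction test, adjusted over all genes, where 2.26% of all genes tested were called. Most of these genes were named for a small p in stimulated knockout, and 11 of the 13 were called there, while Tbx21 and Eomes were known to rise in fresh knockout. The interaction contains both comparisons, so this count and its p-values are no independent evidence. The 10 genes themselves were not put to this test, because it contains the comparison that chose them. Otub1, the deleted gene, had a difference of −1.47 (edgeR adjusted p = 0.00329), and Gpr56, the neighbour of Gpr97, one of 1.37 (edgeR adjusted p = 0.0432). The T-box factors, most like Ctla2a by Pearson but not by Spearman correlation, had differences of −1.10 for Tbx21 and −0.67 for Eomes (edgeR adjusted p = 0.0064 and 0.0484). Among cathepsins the differences were −0.83 for Ctso, −0.51 for Ctss, −0.57 for Ctsw and 0.50 for Ctsz (edgeR adjusted p = 0.0105, 0.0298, 0.00694 and 0.0369). Pdlim2 had a difference of −0.47 and Samd1 one of 0.48 (edgeR adjusted p = 0.0201 and 0.0391). Of the naive T cell genes, Actn1 had a difference of 0.54, Cd27 one of −0.43 and Klf2 one of −0.87 (edgeR adjusted p = 0.0077, 0.0105 and 0.0105).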

How the results depend on the processing

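The counts of the 10 genes called were 3 or 4 higher and 2 lower in stimulated knockout, and 2 higher and 8 lower on stimulation, in every alternative run. Of 180 fold changes of these genes in stimulated knockout under alternatives, 176 kept direction and side of the threshold, 2 passed it (Pak6) and 2 reversed: Ctla2a, at 0.12 without stimulated knockout 1 and 0.01 without stimulated wild type 1 (−0.11 to 0.12 without any 1 library). All 170 on stimulation held. In fresh cells all 180 moved by less than 1 SD of log2 CPM in the more variable of the groups compared, some of them by more than their SE: without 1 library the log2 fold change was 2.05 to 2.50 for Aqp9, 2.06 to 2.61 for Pak6 and −0.78 to −0.48 for Igfbp4. Of 170 differences between the states, 5 moved by more than the mean SD of the 4 groups: Pak6 to −2.24 without fresh wild type 1, Ctla2a to −1.03 without fresh knockout 2, Syt11 to −0.35 without stimulated knockout 1, Gpr97 to 0.39 without stimulated wild type 2 and Acvrl1 to 1.27 without stimulated wild type 1. Counts over all genes moved more. Genes lower in stimulated knockout numbered 539 in all libraries, 358 when only these 2 groups were fitted and 359 when libraries with Y-linked reads were left out. Leaving out 1 library gave 258 to 796 higher and 256 to 532 lower, with the lowest counts without stimulated wild type 3 and 373 higher without stimulated wild type 2. In fresh knockout, 125 genes were higher and 28 lower. DESeq2 gave 227 and 102, no filter 202 and 43, limma-voom 49 lower and the fit without Y-linked reads 53 higher. Leaving out 1 library gave 21 to 170 higher and 8 to 76 lower there, and 5540 to 5606 higher and 5695 to 5766 lower on stimulation. No paired analysis was possible because replicate numbers follow accession order and pair no libraries. Low counts limit Samd3, Pdlim4 and Ctla2b in stimulated cells, where without single libraries the log2 fold change was 0.19 to 1.01 for Samd3 and 0.39 to 1.14 for Pdlim4.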
